A study of Mus musculus with 20 samples.

Results

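Fibronectin is a large adhesive glycoprotein that cells secrete and assemble into fibres of the extracellular matrix. Its classical receptor is the integrin α5β1, a pair of an α chain (Itga5) and a β chain (Itgb1), which binds the Arg-Gly-Asp site of fibronectin together with integrins built on the αv chain (Itgav), such as αvβ3 and αvβ5, and α8β1 (Itga8). The integrin α4β1 (Itga4), a receptor of leukocytes, binds instead the Leu-Asp-Val site of an alternatively spliced segment, and syndecan-4 (Sdc4), a cell surface proteoglycan, binds the heparin-binding region and acts with α5β1 at focal adhesions. In tumours fibronectin is known as a product of fibroblasts, of carcinoma cells and of some macrophages.

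The fibronectin gene Fn1 and 8 genes for its receptors, Itga4, Itga5, Itga8, Itgav, Itgb1, Itgb3, Itgb5 and Sdc4, were followed in the gene count table of mouse mammary tumours. All 9 were found by symbol among the 52783 genes of the table. Fn1 was selected on its measured values, since the study picked it as a gene raised in CD45+ cells of 66cl4 tumours against those of 67NR tumours. The receptor genes were then chosen around it as a family, with results of this contrast known. Of these, Itga8 is also among the genes the study listed as raised on this contrast. The difference between the tumours in CD45+ cells is therefore given here as a description, with no test, for all 9 genes.

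66cl4 and 67NR are related cell lines of the 4T1 breast cancer model, both injected into the mammary fat pad of young adult female BALB/cJ mice without other treatment. 66cl4 tumours metastasise and 67NR tumours do not, and since each tumour type stands for 1 line, line and metastatic ability cannot be told apart. Tumour cell suspensions were sorted on CD45, the leukocyte surface protein encoded by Ptprc, which gave 4 groups of 5 libraries each from 10 animals, with total estimated counts of 12959951 to 28080226 per library. In 4 libraries, those of 66cl4 animals 5 and 6, the title and the recorded cell type name opposite gates. The title was followed. By title, the CD45+ library held 128 times the Ptprc of the CD45- library in animal 5 and 506 times in animal 6. Results were also repeated without these libraries.

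The sorted groups held the markers of their gate. The normalised count of Ptprc, which is the count divided by a size factor of the library, averaged 19511 ± 1513 (SD, n = 5) in CD45+ and 75.2 ± 69.0 in CD45- cells of 66cl4 tumours, and 21884 ± 5630 and 267 ± 136 in those of 67NR tumours. Over 5 leukocyte markers, the CD45- level was 0.385 to 0.873% of the CD45+ level in 66cl4 and 1.22 to 2.34% in 67NR tumours. Over 7 fibroblast markers, the CD45+ level was 4.03 to 8.81% of the CD45- level in 66cl4 and 5.41 to 15.4% in 67NR tumours. In these bulk samples, fewer cells of a type and less RNA per cell cannot be told apart.

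Because the receptors divide by the site they bind, the coding sequence of both sites is shown. In the GENCODE vM21 annotation of GRCm38, Fn1 lies on the minus strand of chromosome 1, from 71585520 to 71653200, and its longest transcript has 46 exons and encodes 2477 residues. The Arg-Gly-Asp site is coded in exon 30 (chr1:71606722-71606778, residues 1614 to 1616) and is present in 7 of 9 coding transcripts. The Leu-Asp-Val site is coded in exon 40 (chr1:71597659-71597715, residues 2101 to 2103) and is present in 3 of the 9. Capitals mark the codons of each site, read 5′ to 3′ on the coding strand.
Arg-Gly-Asp site: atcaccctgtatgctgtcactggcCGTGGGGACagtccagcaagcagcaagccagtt
Leu-Asp-Val site: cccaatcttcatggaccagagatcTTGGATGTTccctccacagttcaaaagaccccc
The deposited counts are summed per gene, so splice forms with and without the Leu-Asp-Val site could not be counted apart.

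In CD45+ cells of 66cl4 tumours its normalised counts were 132613, 66935, 154770, 60389 and 96358 in animals 3, 4, 5, 6 and 7. In CD45+ cells of 67NR tumours they were 18059, 26623, 15444, 14130 and 12441 in animals 1, 4, 5, 6 and 7. The lowest 66cl4 value exceeded the highest 67NR value, and the means, 102213 ± 40971 and 17339 ± 5581 (SD, n = 5 each), stood at a ratio of 5.89, or 5.69 without 66cl4 animals 5 and 6. Leukocyte markers differed between the same libraries. The summed normalised count of 6 neutrophil markers was 43616 to 123972 in 66cl4 and 6974 to 51120 in 67NR CD45+ libraries. That of 3 B cell markers was 47.2 to 8572 and 116 to 1686, with medians of 3271 and 197. That of 7 macrophage markers had medians of 59788 and 69485. The part of the leukocyte make-up in the Fn1 difference was not tested.

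In CD45- cells, which hold the carcinoma and stromal cells, the order of the tumours was not the same. The 66cl4 libraries held 102170, 69806, 81978, 57810 and 78656 normalised counts of Fn1 in animals 3 to 7, and the 67NR libraries held 78550, 106202, 89056, 103730 and 100757 in animals 1 and 4 to 7. The groups overlapped. The log2 fold change of 66cl4 against 67NR was -0.26 ± 0.15 (SE), with a 95% interval of -0.58 to 0.06 and an adjusted p of 0.134 in edgeR's quasi-likelihood test. Whether the tumour effect on Fn1 differed between the gates was not tested, because the CD45+ side of that difference is the contrast Fn1 was chosen by.

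Within animals, the CD45+ library held between 0.959 and 1.89 times the Fn1 of the CD45- library in 66cl4 tumours, and was the higher in 4 of 5 animals. This gate difference did not pass the test, with a log2 fold change of 0.36 ± 0.26 (SE; edgeR, adjusted p = 0.229). In 67NR tumours the ratio was 0.123 to 0.251 and the CD45+ library was the lower in 5 of 5 animals. There Fn1 was lower in CD45+ cells by a log2 fold change of -2.46 ± 0.21 (SE; edgeR, adjusted p = 1.46e-06). The gate tests use the same CD45+ libraries as the contrast on which Fn1 was picked, and are not independent of it.

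The mean level of Fn1 in 67NR CD45+ cells was 18.1% of that in 67NR CD45- cells, above the 5.41 to 15.4% of the 7 fibroblast markers, whereas in 66cl4 tumours it was 131% against 4.03 to 8.81%. Of 6 epithelial markers, Krt8 and Krt18 stood at 5.53 and 5.09% of their CD45- level in 66cl4 CD45+ cells, whereas Cdh1 was the higher there, with means of 394 in CD45+ and 20.8 in CD45- cells. The summed count of the 6 was 623 to 946 in CD45+ and 6057 to 6844 in CD45- libraries of 66cl4 tumours, and 261 to 320 and 125 to 391 in those of 67NR tumours. The part of RNA from CD45- cells in the Fn1 level of the CD45+ libraries was not tested.

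**Figure D1:**
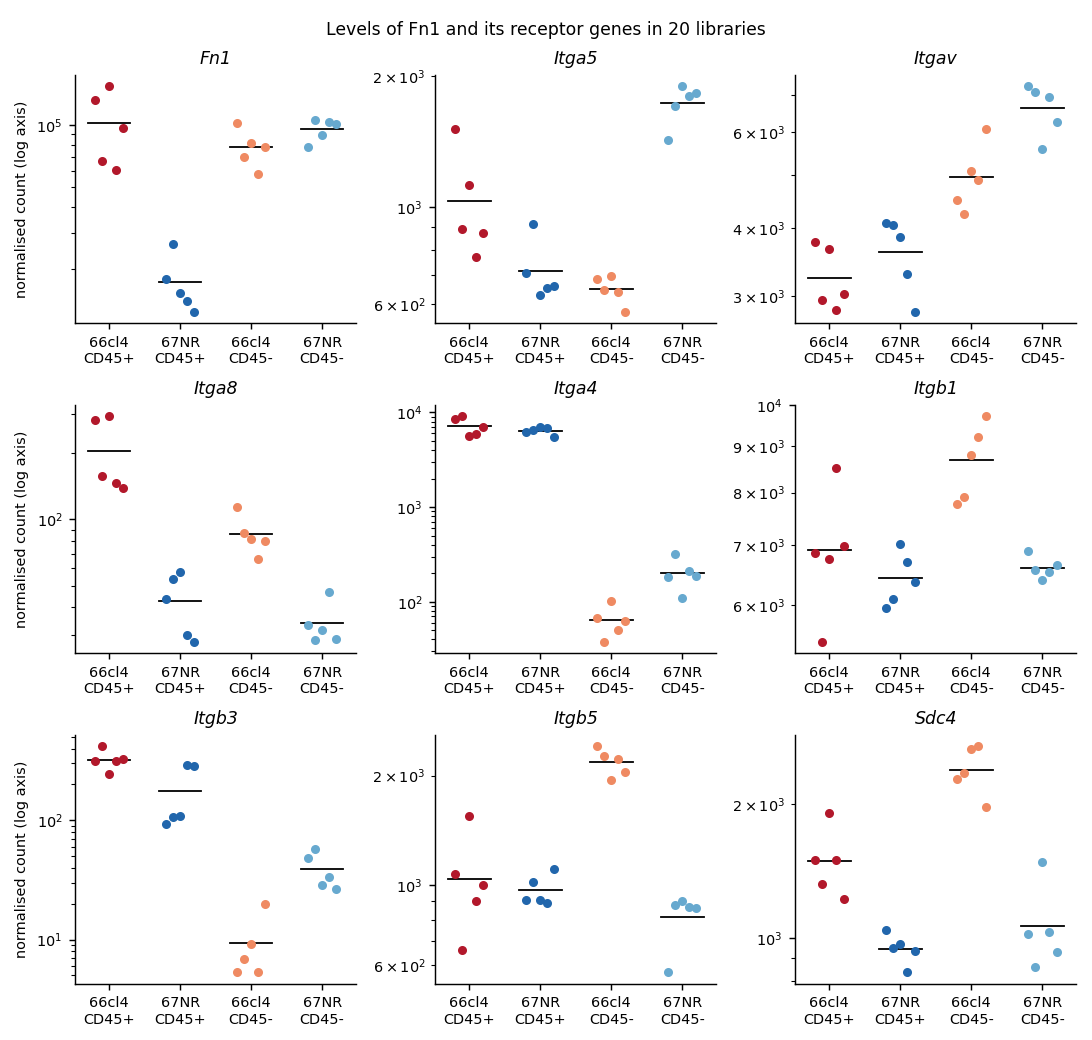
Normalised counts (log axis) of Fn1 and its 8 receptor genes in 20 libraries, 5 per group, with each point a library and each line the mean of its group. Fn1 is low in the CD45+ libraries of 67NR tumours alone, Itga4 and Itgb3 are high in the CD45+ libraries of both tumours, and Itgb5 and Sdc4 are highest in the CD45- libraries of 66cl4 tumours.

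Per transcript length, Fn1 exceeded each receptor gene in the mean of every group. Its mean TPM, a level corrected for transcript length and depth, were 1104 in 66cl4 CD45+, 180 in 67NR CD45+, 844 in 66cl4 CD45- and 998 in 67NR CD45- cells. Itgb1, the β chain shared by α4, α5, α8 and αv, was the most abundant receptor gene, with mean TPM of 147 to 204 over the 4 groups. Itgav reached 41.1 to 81.2, Itga5 13.2 to 34.1, Itgb5 21.6 to 59.3 and Sdc4 33.3 to 86.9. Itga4 had 66.8 and 56.9 in the CD45+ groups but 0.593 and 1.82 in the CD45- groups, and Itga8 and Itgb3 stayed at or below 5.03.

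Across the 3 tested comparisons, the receptor genes moved in different directions. In CD45- cells 3 of the 9 genes were called higher in 66cl4 tumours, 3 lower and 3 not, where a call needs an adjusted p below 0.05 and at least a doubling or halving (absolute log2 value above 1). Among all 14844 genes tested, 13.2% were called higher and 18.9% lower. The median log2 fold change was -0.26 over the 9 genes and -0.01 over all genes. All 9 genes passed the filter on low counts in each comparison.

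The α chain of the classical receptor, Itga5, was lower in CD45- cells of 66cl4 tumours. Its normalised counts were 686, 645, 696, 637 and 575 in 66cl4 animals 3 to 7, and 1431, 1705, 1901, 1803 and 1828 in 67NR animals 1 and 4 to 7. The groups stood well apart, at a log2 fold change of -1.39 ± 0.09 (SE; edgeR, adjusted p = 1.51e-08). Itgb1, its partner chain, went the other way by a small amount, with 7773 to 9727 against 6406 to 6891 and no overlap, a log2 fold change of 0.43 ± 0.08 (SE; adjusted p = 4.98e-04) that was under the fold threshold.

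The αv chain and its β partners also parted. Itgav spanned 4245 to 6065 normalised counts in CD45- cells of 66cl4 tumours and 5572 to 7280 in those of 67NR tumours. It had a log2 fold change of -0.39 ± 0.11 (SE; edgeR, adjusted p = 0.00579) and was not called. Itgb5, the β chain of αvβ5, held 2409, 2271, 1948, 2226 and 2049 normalised counts in 66cl4 animals 3 to 7 and 574, 881, 904, 866 and 864 in 67NR animals 1 and 4 to 7. It was higher in every 66cl4 library, by a log2 fold change of 1.45 ± 0.12 (SE; edgeR, adjusted p = 1.25e-07).

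Itgb3, the β chain of αvβ3 and of the platelet fibrinogen receptor, was scarce in CD45- cells, with 5.31, 6.86, 9.16, 5.31 and 19.96 normalised counts in 66cl4 animals 3 to 7 and 48.3, 57.8, 29.0, 33.6 and 26.6 in 67NR animals 1 and 4 to 7. All 66cl4 libraries were lower, by a log2 fold change of -2.02 ± 0.38 (SE; edgeR, adjusted p = 2.93e-04). Itga4 was likewise lower, with 37.4 to 102 against 111 to 316 normalised counts and a log2 fold change of -1.62 ± 0.29 (SE; adjusted p = 2.81e-04). Leukocyte markers moved with both genes: Ptprc averaged 75.2 in 66cl4 and 267 in 67NR CD45- cells, and the CD45- level of Itga4 was 0.888% of its CD45+ level in 66cl4 and 3.15% in 67NR tumours, where the 5 leukocyte markers ranged from 0.385 to 0.873% and from 1.22 to 2.34%. For Itgb3 these shares were 2.88 and 22.0%. The part of leukocyte RNA in these differences was not tested.

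Of the less abundant Arg-Gly-Asp receptor chain Itga8, known from smooth muscle and mesenchymal cells, the 66cl4 CD45- libraries held 114, 86.7, 81.6, 65.9 and 79.9 normalised counts in animals 3 to 7 and the 67NR libraries 33.3, 28.5, 31.6, 46.9 and 28.6 in animals 1 and 4 to 7. It was higher in 66cl4 tumours by a log2 fold change of 1.37 ± 0.20 (SE; edgeR, adjusted p = 4.05e-05). Sdc4 was higher as well, with 2284, 2354, 2661, 2702 and 1969 against 1019, 861, 1481, 1033 and 932 normalised counts. No library of the tumours overlapped, and the log2 fold change was 1.20 ± 0.14 (SE; edgeR, adjusted p = 4.71e-06).

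**Figure D2:**
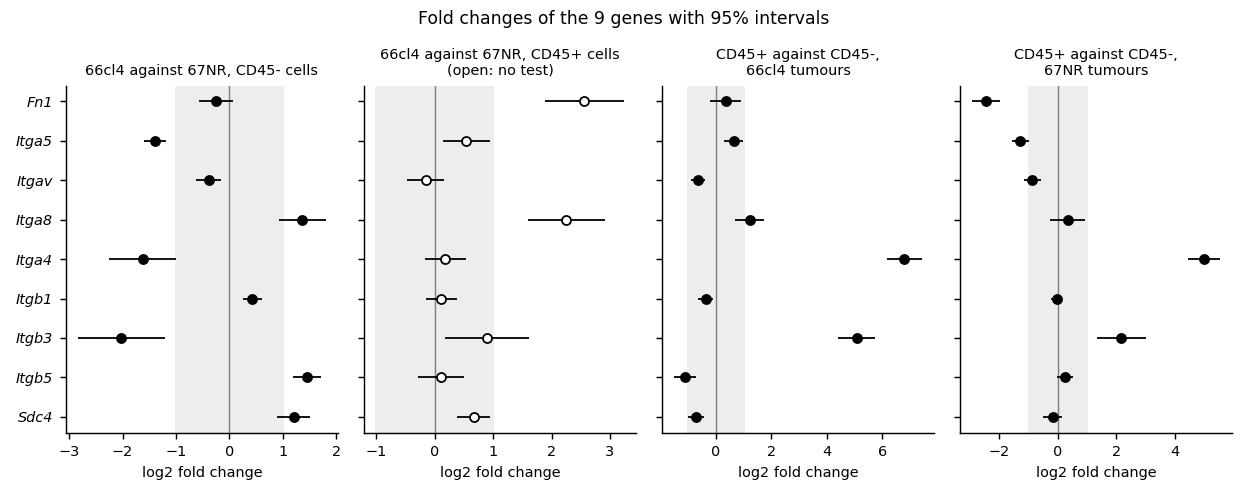
Log2 fold changes (points) with 95% intervals (bars) of the 9 genes in 4 comparisons of 5 against 5 libraries. The grey band marks absolute values under 1, and open points are a description without a test. In CD45- cells Itga5, Itga4 and Itgb3 lie below the band, and Itga8, Itgb5 and Sdc4 above it.

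Itga4 and Itgb3 were higher in CD45+ than in CD45- cells of both tumours. In 66cl4 tumours, 3 of the 9 genes were called higher in CD45+ cells and 1 lower, beside 23.9 and 20.5% of the 14916 genes tested. In 67NR tumours 2 were called higher and 2 lower, beside 20.2 and 19.6% of 15063 genes. The medians of the 9 genes were 0.36 and -0.04 on the log2 scale, and those of all genes 0.00 and -0.05.

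Itga4, whose protein also binds VCAM-1 on endothelium, reached 5659 to 9141 normalised counts in the CD45+ libraries of 66cl4 tumours and 5470 to 7000 in those of 67NR tumours. The CD45+ library held 55.3 to 244 times the Itga4 of the CD45- library of its animal in 66cl4 tumours and 20.7 to 63.3 times in 67NR tumours. The log2 fold changes were 6.79 ± 0.29 (SE; edgeR, adjusted p = 2.27e-09) and 4.99 ± 0.25 (SE; adjusted p = 2.22e-08).

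Itgb3 was also higher in CD45+ cells of both tumours. Its counts were 316, 419, 244, 314 and 327 in 66cl4 animals 3 to 7, and 93.6, 107, 109, 291 and 286 in 67NR animals 1 and 4 to 7, where animals 6 and 7 stood apart from the other 3. The log2 fold changes against CD45- cells were 5.07 ± 0.31 (SE; edgeR, adjusted p = 1.96e-08) and 2.16 ± 0.38 (SE; adjusted p = 3.89e-04). Of the platelet markers, listed because platelets carry β3 and can adhere to leukocytes, Pf4 averaged 7307 and 3729 normalised counts in the CD45+ groups of 66cl4 and 67NR, Ppbp 527 and 380, and Gp1ba 3.68 and 34.7, whereas Gp9 and Gp1bb were each under 1.

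Itga5 showed a gate difference in 67NR tumours. Its counts in CD45+ cells were 705, 916, 630, 654 and 660 in 67NR animals 1 and 4 to 7, each below the CD45- library of the same animal, and the log2 fold change was -1.28 ± 0.13 (SE; edgeR, adjusted p = 5.62e-06). In 66cl4 tumours the counts were 1513, 893, 1128, 768 and 875 in animals 3 to 7, each above the CD45- library, with a log2 fold change of 0.64 ± 0.16 (SE; edgeR, adjusted p = 0.00307), under the fold threshold. Fn1 and Itga5 were the 2 genes of the 9 called lower in 67NR CD45+ cells. Whether the gate difference of Itga5 differed between the tumours was not tested.

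Itgb5 was lower in CD45+ than in CD45- cells of 66cl4 tumours, by a log2 fold change of -1.10 ± 0.18 (SE; edgeR, adjusted p = 1.20e-04), and without CD45+ animal 4 the value was -0.94, below the fold threshold. In 67NR tumours its log2 fold change was 0.24 (95% interval -0.04 to 0.52; edgeR, adjusted p = 0.112). Itga8 was higher in CD45+ cells of 66cl4 tumours, with 281, 158, 294, 146 and 139 normalised counts in animals 3 to 7 and a log2 fold change of 1.22 ± 0.24 (SE; edgeR, adjusted p = 6.07e-04). Without animals 5 and 6 this value came to 0.998 (adjusted p = 0.0180), just under the fold threshold. This gate test of Itga8 uses the CD45+ libraries in which the study listed it as raised, and is not independent of that listing. In 67NR tumours Itga8 had a log2 fold change of 0.34 (95% interval -0.25 to 0.93; edgeR, adjusted p = 0.288).

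Itgav, Itgb1 and Sdc4 were not called in either tumour. Itgav was lower in the CD45+ library of 5 of 5 animals of both tumours, with log2 fold changes of -0.64 in 66cl4 and -0.87 in 67NR (edgeR, adjusted p = 3.88e-04 and 1.53e-04). Sdc4 had -0.71 (adjusted p = 3.17e-04) in 66cl4 and -0.17 (adjusted p = 0.313) in 67NR. The values of Itgb1 were -0.36 (adjusted p = 0.0215) and -0.04 (adjusted p = 0.670), and the latter turned to 0.03 without 67NR CD45+ animal 7.

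**Figure D3:**
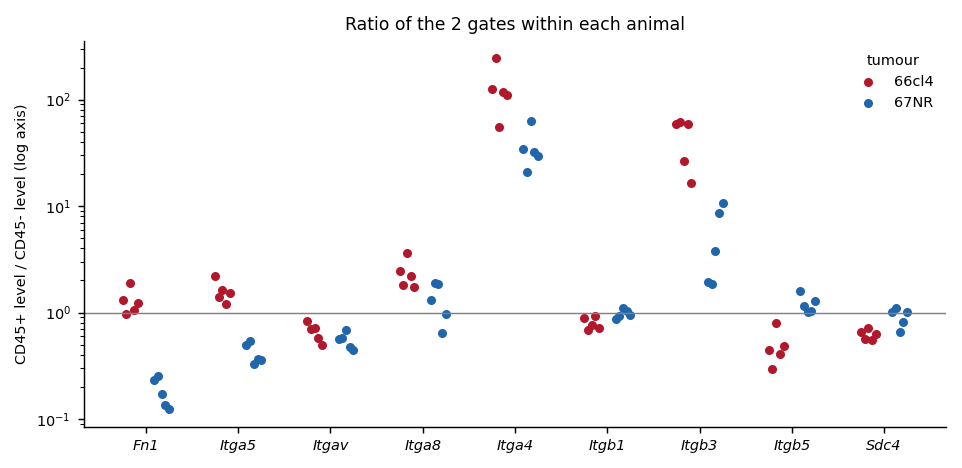
Ratio of the CD45+ to the CD45- normalised count of each gene within each animal (log axis), 5 animals per tumour, with the grey line at 1. Ratios of Fn1 and Itga5 lie below 1 in every 67NR animal, and those of Itga4 and Itgb3 lie above 1 in all 10 animals.

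In CD45+ cells, where no test is given, Fn1 and Itga8 had the largest differences of the 9 genes between the tumours. Log2 fold changes of 66cl4 against 67NR were 2.56 for Fn1 and 2.25 for Itga8, whose normalised counts ran from 139 to 294 in 66cl4 tumours and from 27.8 to 57.9 in 67NR tumours. They were 0.90 for Itgb3, 0.67 for Sdc4, 0.55 for Itga5, 0.19 for Itga4, 0.12 for Itgb1, 0.11 for Itgb5 and -0.15 for Itgav. Fn1, Itga8 and Sdc4 did not overlap between the tumours. The share of all genes without overlap was not counted, so nothing is read from this either. By the rule used elsewhere 2 of the 9 were above both thresholds and 0 below, beside 5.01% higher and 6.82% lower of 14676 genes, and nothing is read from this count.

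The make-up of the receptor transcripts was described by the share of each chain in the TPM sum of the 4 α genes or the 3 β genes, per library. Shares of one sum are tied to each other, since 1 can rise only where another falls. They were compared by two-sided exact permutation tests over all splits of 10 libraries, for which the smallest p is 0.00794, adjusted over 21 tests, of which 17 passed. Between gates these splits ignore that each animal gave 1 library to either gate. No test of the shares kept the libraries of an animal together.

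In CD45- cells, Itgav made up 80.4 ± 2.9% (SD, n = 5) of the α sum in 66cl4 and 68.9 ± 4.1% in 67NR tumours, and Itga5 17.1 ± 2.5 and 29.2 ± 4.3% (exact permutation, adjusted p = 0.0128 for both). Of the β sum, Itgb1 made up 77.2 ± 2.9% in 66cl4 and 87.1 ± 2.1% in 67NR tumours, and Itgb5 22.7 ± 2.9 and 12.5 ± 2.1% (exact permutation, adjusted p = 0.0128 for both). The libraries of the tumours did not overlap in any of these 4 shares. In CD45+ cells Itga4 held 50.1 ± 6.5% of the α sum in 66cl4 and 49.1 ± 3.1% in 67NR tumours, against 0.747 and 1.496% in the CD45- cells (exact permutation between gates, adjusted p = 0.0128 in each tumour). Itgav held 31.6 and 38.2% there, and Itga5 15.9 and 12.2%. The Itga5 share differed between the gates in 67NR tumours (exact permutation, adjusted p = 0.0128), whereas in 66cl4 tumours the difference of -1.22 percentage points did not pass (adjusted p = 0.492) and was 2.76 with mean in place of longest transcript lengths (adjusted p = 0.0111). Between the gates of 66cl4 tumours the share of Itgb1 was 5.67 percentage points higher in CD45+ cells (exact permutation, adjusted p = 0.0392), and this was lost without 66cl4 CD45+ animal 3, 4, 6 or 7 or CD45- animal 3 or 4 (differences of 4.61 to 5.78, adjusted p of 0.0686 to 0.0882).

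**Figure D4:**
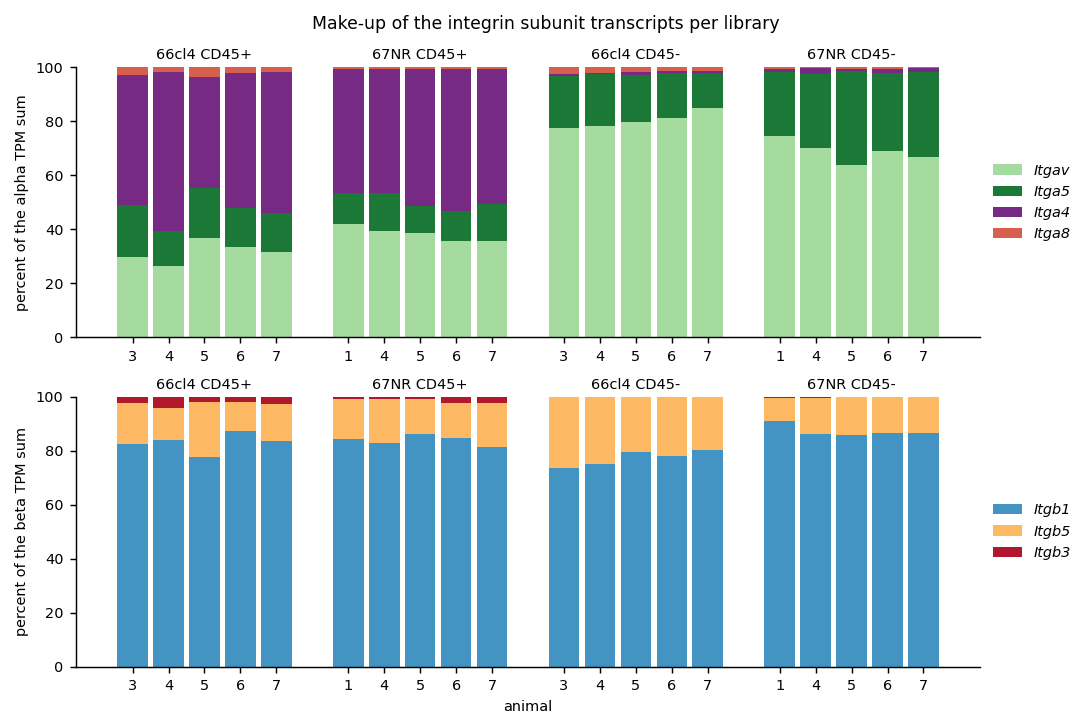
Percent of each α chain (top) and β chain (bottom) in the TPM sum of its family, with 1 bar per library and animals numbered within each group. Itga4 takes about as much as all other α chains together in CD45+ libraries and little in CD45- libraries, and the Itga5 and Itgb1 shares are larger in 67NR than in 66cl4 CD45- libraries.

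Beyond the 9 genes, 82 partner genes in 6 lists were examined. In CD45- cells, 11 of the 70 tested were called higher in 66cl4 tumours, 22 lower and 37 not, beside 13.2% higher and 18.9% lower of all genes. Of the 9 other fibronectin receptors, 7 were tested and 4 were lower in 66cl4 tumours, among them Sdc3, another syndecan, with a log2 fold change of -5.06 ± 0.46 (SE; edgeR, adjusted p = 5.13e-06), and Itga9, an α chain that pairs with β1, with -2.28 ± 0.53 (adjusted p = 0.00192). Itga9 averaged only 9.05 normalised counts in 66cl4 and 46.9 in 67NR CD45- cells. Of 15 genes of fibronectin matrix assembly and turnover, 1 was higher and 7 lower. Lower were Mmp2, a matrix protease, with -4.61 ± 0.25 (SE; adjusted p = 8.44e-09), and Fbln1, a fibulin that binds fibronectin, with -4.05 ± 0.24 (adjusted p = 4.01e-09).

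Integrins for collagen and laminin went both ways in CD45- cells, with 4 of 7 higher in 66cl4 tumours and 2 lower. Itgb4, the laminin receptor chain of hemidesmosomes, averaged 1033 normalised counts in 66cl4 and 72.3 in 67NR tumours, a log2 fold change of 3.87 ± 0.20 (SE; edgeR, adjusted p = 1.51e-09). Itga10, a collagen receptor chain, averaged 2613 and 206 (3.70 ± 0.14, adjusted p = 5.57e-11). Cell type markers moved in the same libraries. The summed epithelial markers of CD45- cells ran from 6057 to 6844 in 66cl4 tumours and from 125 to 391 in 67NR tumours. The 6 genes went both ways. Krt8 (means of 5353 and 61.6), Krt18 (1149 and 58.6) and Krt14 (15.8 and 5.44) were higher in 66cl4 tumours. Cdh1 (20.8 and 32.9), Epcam (12.1 and 32.8) and Krt5 (0.836 and 3.98) were lower there. The sums of 5 pericyte and 6 endothelial markers had lower medians in 66cl4 tumours, 713 against 2130 and 705 against 1824. The part of these cell types in the differences in CD45- cells was not tested. Of 13 other ligands of these integrins tested, 4 were higher and 2 lower. The matricellular proteins Ccn2 and Thbs1 had log2 fold changes of 4.70 ± 0.37 and 3.71 ± 0.18 (SE; edgeR, adjusted p = 1.14e-06 and 4.10e-10). Of 22 genes of the adhesion machinery, 1 was higher, 4 were lower and 17 were not called, and the lowest was Ptk2b, a kinase related to focal adhesion kinase, at -3.17 ± 0.16 (SE; adjusted p = 8.65e-10).

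Itgb2, the β chain of the leukocyte integrins, stood out in CD45- cells. It held 3204 to 3647 normalised counts in the 66cl4 libraries and 176 to 313 in the 67NR libraries, a log2 fold change of 3.92 ± 0.16 (SE; edgeR, adjusted p = 1.01e-10). Its α partners Itgal and Itgax were scarce there, with means of 10.4 and 4.10 in 66cl4 and 77.7 and 21.8 in 67NR tumours. In CD45+ cells these means were 2891 and 1159 in 66cl4 and 3850 and 1058 in 67NR tumours. Both were lower in 66cl4 CD45- cells, with -2.85 ± 0.40 and -2.41 ± 0.53 (SE; edgeR, adjusted p = 2.76e-05 and 0.00115). In all, 1 of the 6 leukocyte integrin genes tested was higher in 66cl4 CD45- cells and 3 were lower. The means of Ptprc and of the other 4 leukocyte markers were lower in 66cl4 than in 67NR CD45- cells, so Itgb2 did not move with them. The part of leukocyte RNA in the CD45- levels of these integrin genes was not tested.

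Between gates, all 6 leukocyte integrin genes tested were higher in CD45+ cells of both tumours, led by Itgax and Itgal in 66cl4 (log2 fold changes of 8.14 and 8.07) and in 67NR (5.57 and 5.61; edgeR, adjusted p from 1.41e-09 to 2.07e-07). Of the matrix assembly and turnover list, 9 of 14 genes were lower in CD45+ cells in 66cl4 and 12 of 15 in 67NR tumours, while Dpp4 and Plau, the urokinase, were higher in both. Of the adhesion machinery, 6 of 22 genes were higher and 10 lower in 66cl4, and 4 of 21 higher and 8 lower in 67NR tumours. The higher ones included the leukocyte forms of kindlin and parvin, Fermt3 and Parvg, at 7.25 and 6.18 in 66cl4 and 5.59 and 5.04 in 67NR tumours. Over all 82 partner genes, 25 of 71 tested were higher and 33 lower in CD45+ cells of 66cl4 tumours, and 20 of 70 higher and 37 lower in those of 67NR tumours. Of all genes, 23.9 and 20.5% were called in 66cl4 and 20.2 and 19.6% in 67NR tumours.

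In CD45+ cells, 11 of the 70 partner genes tested were called higher in 66cl4 tumours and 15 lower, beside 5.01 and 6.82% of all genes. The 26 calls came to 17 without 66cl4 animals 5 and 6. They include Thbs1, which the study picked on this contrast, and Cd44, Plaur and Itga10, which it listed among genes raised on it. The lists were chosen with earlier results of these data known, so the calls are not independent of this contrast. The fibronectin receptors Plaur, which is the urokinase receptor, and Cd44 were higher, at 1.85 ± 0.39 and 1.38 ± 0.21 (SE; edgeR, adjusted p = 0.00696 and 9.22e-04), and Sdc2 was lower, at -3.18 ± 0.53 (adjusted p = 0.00216). Edil3, a ligand of αvβ3 and αvβ5, averaged 309 normalised counts in 66cl4 and 19.6 in 67NR tumours, at 4.01 ± 0.33 (SE; adjusted p = 2.99e-05). Vcam1, the endothelial and macrophage ligand of α4β1, averaged 148 and 2081, at -3.80 ± 0.29 (SE; adjusted p = 2.47e-05). Mmp2 and Fbln1 were lower at -4.63 ± 0.60 and -3.87 ± 0.56 (SE; adjusted p = 6.10e-04 and 7.23e-04), in libraries whose 7 summed fibroblast markers ranged from 202 to 1525 in 66cl4 and from 625 to 2450 in 67NR tumours. The summed neutrophil and B cell markers had higher medians in 66cl4 than in 67NR CD45+ libraries, 112068 against 16511 and 3271 against 197. Their ranges, given beside Fn1, overlapped. The 7 macrophage markers went both ways. Means in 66cl4 and 67NR tumours were 3022 and 6587 for Adgre1, 4714 and 8770 for C1qa and 11022 and 20698 for C1qb. They were 10174 and 11668 for Csf1r, 8166 and 6568 for Cd68, 546 and 299 for Mertk and 21861 and 21745 for Mrc1. The part of fibroblast RNA and of the leukocyte make-up in these differences was not tested.

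The tumour effect differed between the gates for 51 of 72 partner genes tested, at an adjusted p under 0.05 for the interaction over 20 libraries, beside 43.1% of the 16453 genes tested. For 30 of them the effect was the larger in CD45+ cells and for 21 the smaller, on the signed log2 scale. The count was 31 without 66cl4 animals 5 and 6 and 36 with no filter on low counts. The CD45+ side of the interaction is the contrast on which the study listed some of these genes, so the count is not independent of it.

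**Figure D5:**
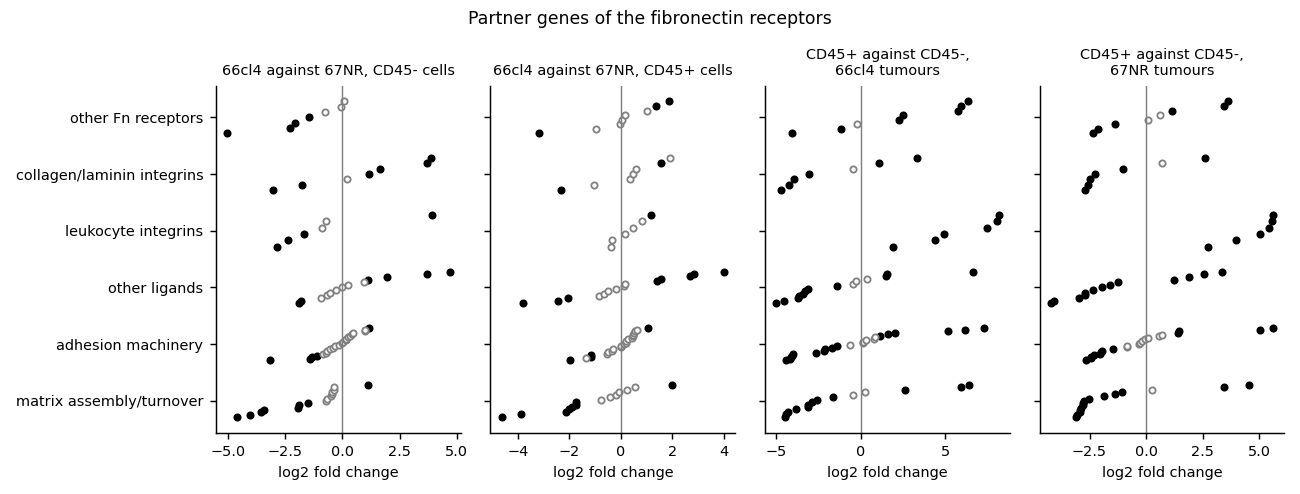
Log2 fold changes of the tested partner genes by list in 4 comparisons, with filled points for genes called and open points for the others. All leukocyte integrin genes lie to the right in both gate comparisons, and most matrix assembly and turnover genes lie to the left.

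The genes whose pattern was most like that of Fn1 over the 20 libraries were Cd9, Spp1, Jag1, Slc12a5 and Akr1b8. Likeness was the root mean square difference of log2 values centred on the mean of each gene, which was 0.474, 0.545, 0.572, 0.575 and 0.581 for these genes and had a median of 1.31 over 16452 genes. Cd9, a tetraspanin, averaged 8334 normalised counts in 66cl4 CD45+, 2798 in 67NR CD45+, 8678 in 66cl4 CD45- and 8187 in 67NR CD45- cells. Spp1, which encodes osteopontin, a ligand of αv integrins, averaged 124014, 42480, 146520 and 127234 in the same order. Of the receptor genes, Itga5 came nearest to Fn1, at 0.929 and rank 360, and Itga4 was the farthest, at 3.68 and rank 15846. The order of the groups was not that of Fn1 even for Itga5. Itga5 had its lowest mean, 648, in 66cl4 CD45- cells, and Fn1 its lowest, 17339, in 67NR CD45+ cells.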

How the data were processed

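RNA of sorted CD45+ and CD45- cells was sequenced as single reads (SENSE mRNA-Seq V2). The authors trimmed reads with fastp, counted them with Salmon 1.3.0 per the labels, summed transcripts to genes with tximport, and deposited estimated counts as they were. The reference named is the human GRCh38, although the identifiers are mouse. The mouse build is not given in the sources used here, so coordinates come from the annotation alone. Of the identifiers, 51492 had a symbol. In each library 15.1 to 18.0% of values were not whole, and all were rounded, by at most 0.5.

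Groups of 5 libraries were compared in R 4.3.3 with edgeR 4.0.16 (TMM, quasi-likelihood, robust, minimum count 10 and minimum total 15), with Benjamini-Hochberg adjustment over all genes tested and only the groups compared in a fit. Levels are counts over DESeq2 1.42.0 size factors. TPM used the longest coding transcript, and the 1291 genes without a length (2.58% of counts) were left out. Reads that fit similar genes may be divided by the estimation. Each test was tried on simulated counts. All pairs of replicates differed by more than sampling noise, and p-values measure the spread between animals.

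The members, the lists and the tests were chosen with earlier results of these data known. Named genes are the 9 members, Ptprc, up to 3 called genes of largest absolute log2 fold change per list and comparison with a mean of at least 10 normalised counts, and the 5 genes most like Fn1. Marker lists and platelet genes were fixed as lists. Of the platelet list, 1 gene is not reported here. Other settings tried were a replicate block, RLE factors, DESeq2's Wald test, a fit of all 20 libraries, no filter or one of 10 counts in 5 libraries, no fold threshold, and fits without each library in turn or without animals 5 and 6 of 66cl4. Mean transcript lengths were added after seeing the data. Both gates of an animal carry its number, which pairs them. The correlation of their deviations from the group means ran from 0.0242 to 0.148 for 66cl4 animals and from -0.00308 to 0.324 for 67NR animals. A number shared between the tumours has no such meaning. Figures were drawn with matplotlib 3.10.9.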

Additional observations from a re-analysis of the deposited data

Results flagged for a closer look

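In 7 of 64 groups of 5 libraries, 1 library stood far from the others, where chance gives about 3.2. The groups are not independent, since shares are computed from the levels, so nothing is read from the excess. Itga5 held 916 normalised counts in 67NR CD45+ animal 4, with the others at 630 to 705. Itga8 held 46.9 in 67NR CD45- animal 6 (others 28.5 to 33.3), Itgb3 held 19.96 in 66cl4 CD45- animal 7 (others 5.31 to 9.16), and Sdc4 held 1481 in 67NR CD45- animal 5 (others 861 to 1033). In 67NR CD45- animal 1, Itgb5 held 574 (others 864 to 904), its share of the β sum was 8.79% and that of Itgb1 was 90.8%.

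The tumour effect differed between CD45+ and CD45- cells for these partner genes (edgeR interaction, CD45+ effect minus CD45- effect, log2). Among other fibronectin receptors, Sdc3 differed by 5.24, Itgb8 by 2.35 and Itga9 by 2.34 (adjusted p = 1.20e-07, 0.00454 and 0.00220). Among collagen and laminin receptors the values were 2.14 for Itga6, -2.10 for Itga10 and -1.94 for Itgb4 (adjusted p = 9.87e-08, 0.00190 and 0.0262). Among leukocyte integrins they were -3.10 for Itgb2, 2.58 for Itgax and 2.46 for Itgal (adjusted p = 1.25e-08, 0.00134 and 7.02e-04). Among other ligands they were 4.13 for Edil3, -3.25 for Vcam1 and -1.96 for Ccn2 (adjusted p = 0.00147, 1.38e-07 and 0.0429). In the adhesion machinery they were 3.69 for Ptk2b, -1.75 for Fermt2 and 1.67 for Fermt3 (adjusted p = 7.32e-10, 0.00662 and 0.0159). In matrix assembly and turnover they were 2.47 for Plau, 2.39 for Tgm2 and 2.33 for Fbln5 (adjusted p = 9.88e-04, 1.41e-05 and 0.0261). The study listed Tgm2, Itga10 and Itgb4 among genes raised in 66cl4 CD45+ cells, so their interactions are not independent of that listing. Without 66cl4 animals 5 and 6, Fbln5, Ccn2, Itgb4 and Itgb8 lost the call, at 1.70, -2.27, -1.71 and 1.99 (adjusted p = 0.220, 0.0581, 0.0949 and 0.0568). With no filter on low counts, Fbln5, Ccn2, Itgb4 and Fermt3 lost it (adjusted p = 0.0507, 0.103, 0.0677 and 0.0572). Fbln5 also lost it without 66cl4 CD45- animal 3, 5 or 6, 66cl4 CD45+ animal 5 or 7 or 67NR CD45- animal 4 (1.87 to 2.18), Ccn2 without 66cl4 CD45+ animal 3, 67NR CD45+ animal 1 or 4 or 67NR CD45- animal 5 (-1.86 to -1.56), and Itgb4 without 67NR CD45+ animal 4 (-1.33). In CD45- cells Edil3 averaged 2.90 and 3.21 normalised counts in 66cl4 and 67NR tumours, and Itgb8 1.80 and 10.5, so that side of their difference rests on few counts. There Itgax averaged 4.10 and 21.8, Itga9 9.05 and 46.9, Itgal 10.4 and 77.7, Fermt3 11.6 and 31.8 and Ptprc 75.2 and 267. Their CD45+ means were 1159 and 1058 for Itgax, 595 and 577 for Itga9, 2891 and 3850 for Itgal and 1842 and 1560 for Fermt3. The part of leukocyte RNA in the CD45- side of these differences was not tested.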

How the results depend on the processing

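In the 3 tested comparisons, the calls of the 9 genes were the same under DESeq2, RLE factors, both other filters, all 20 libraries in a fit and the replicate block, which left 6, 4 and 4 of them called in CD45- cells, between the gates of 66cl4 and between those of 67NR. Without a fold threshold 8 rather than 4 were called between the gates of 66cl4 tumours, 55 rather than 33 partner genes in CD45- cells, and 9999 rather than 4774, 10892 rather than 6621, 10143 rather than 5992 and 3259 rather than 1736 of all genes in CD45- cells, between the gates of 66cl4, between those of 67NR and in CD45+ cells. Leaving out 1 library lost the call of Itgb5 between the gates of 66cl4 (-0.94 without CD45+ animal 4) and turned the sign of Itgb1 between those of 67NR (0.027 without CD45+ animal 7, with a range of -0.072 to 0.027 over all left-out libraries). Without 66cl4 animals 5 and 6, Itga8 between the gates of 66cl4 fell below the fold threshold (0.998), 17 rather than 26 partner genes were called in CD45+ cells, 31 rather than 51 had an interaction (36 with no filter) and 11 rather than 17 subunit shares differed. Between the gates of 66cl4 this leaves 3 against 3 libraries, where the permutation test cannot pass, and the differences of the 5 shares lost there were larger than before, such as 52.5 against 49.4 percentage points for Itga4. Under the replicate block, which between tumours shares only a number (correlations of deviations -0.145 to 0.00914 in CD45- and 0.00564 to 0.0830 in CD45+ cells), 17 partner genes were called in CD45+ cells, and Parva, Tln2 and Src, the 3 adhesion machinery genes lower in 66cl4 CD45+ cells, lost their calls. The share difference of Itga8 between the gates of 67NR was 0.114 in TPM and -0.00305 in normalised counts, and that of Itga5 between those of 66cl4 was -1.22 with the longest and 2.76 with mean transcript lengths. The cause of these shifts was not tested. At this depth genes near 10 counts, such as Itgb3 in 66cl4 CD45- cells, are measured least precisely.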
